A study of Mus musculus with 96 samples.

Results

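Small leucine-rich proteoglycans are secreted matrix proteins built on a curved stack of leucine-rich repeats, most of which bind collagen and carry glycosaminoglycan chains. The 10 genes described here were taken by name and not by a rule on their values, but with earlier results of these data known. They were Dcn (decorin), Bgn (biglycan), Aspn (asporin), Lum (lumican), Fmod (fibromodulin), Prelp, Kera (keratocan), Omd (osteomodulin), Ogn (osteoglycin) and Podn (podocan). They are 10 of the 37945 genes to which the deposited transcripts could be summed. Of these 10 genes, 9 were above 0 in every library, while Kera was at or near 0 in nearly all of them.

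Decorin, biglycan and asporin form class I of the family, lumican, fibromodulin, PRELP, keratocan and osteomodulin class II, osteoglycin class III and podocan class V. Decorin and biglycan carry chondroitin or dermatan sulfate, several class II members carry keratan sulfate, and asporin has a run of aspartic acid residues and lacks the attachment sites of its class. These proteins set the width and spacing of collagen fibrils, and decorin and biglycan also bind TGF-beta. In bone, biglycan is known as a matrix proteoglycan of mineralizing osteoblasts, osteomodulin as a protein of mature osteoblasts, and decorin, lumican and osteoglycin as products of osteoblasts and of many connective tissue fibroblasts.

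The libraries came from osteoblast cultures of 42 Collaborative Cross strains, inbred mouse lines that each carry a different mosaic of the same founder genomes. Cells were digested with trypsin and collagenase from the skull caps of pups between 3 and 5 days old, expanded for 48 h and differentiated for 10 days with beta-glycerol phosphate and ascorbic acid. Every culture had this treatment, so strain is the sole group in the labels, which give no sex, litter or batch and do not say whether 2 libraries of a strain came from separate pups. The p-values of the tests between strains below therefore rest on the spread between such libraries, which may in part be technical. Those of relations between genes, or of genes with marker scores, rest on the scatter between the 42 strain means.

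There were 95 libraries, with the sample sequenced 2 times counted once. They were 2 for 31 strains, 3 for 2 strains, 4 for 6 strains and a single one for CC011, CC024 and CC035. A calvarial digest holds several cell types, and in these bulk libraries fewer cells of a type and less RNA per cell cannot be told apart. All 15 osteoblast markers on a fixed list were above 0 in every library, but their summed level ran from 591 scaled TPM in CC071 to 7192 in CC061 (median over strains 3786). The sum of 14 macrophage markers ran from 62.9 in CC005 to 4810 in CC030 (median 468). Each CC030 and CC071 mean was below the strain median for 15 of 15 osteoblast markers and above it for 14 of 14 macrophage markers. The CC030 replicate that was sequenced 2 times gave lower deposited TPM in its second run for 10 of 10 genes, at 0.768 to 0.906 of the first. Other genes were not compared between the runs, so this shows nothing particular to the family. The replicate entered as the mean of both runs. TPM holds no depth, so no counting interval is given.

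Levels are given as scaled TPM, the deposited TPM divided by 1 factor per library, so that they can be compared between genes as well as between strains. Lumican was the most abundant, with a median over strains of 708 scaled TPM, ahead of Dcn (305), Aspn (241), Bgn (239) and Ogn (195). Fmod (100.7) and Omd (48.0) were lower, Prelp (7.49) and Podn (6.601) lower again, and Kera stood at 0.0284. The 10 genes together reached a median of 1885 scaled TPM, from 1289 in CC043 to 3198 in CC030. Lum held a median of 36.9% of that sum, Dcn 17.5%, Aspn 12.5%, Bgn 12.0%, Ogn 10.7%, Fmod 5.20% and Omd 2.48%.

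**Figure D1:**
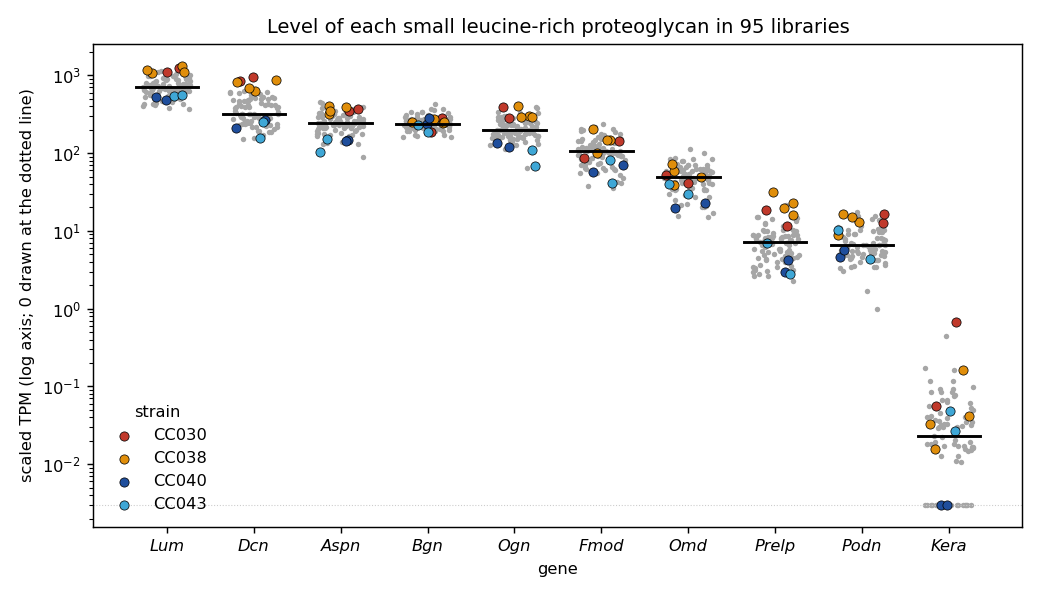
Scaled TPM of each gene (log axis) in 95 libraries, 1 point per library, with the median over libraries as a black bar and 4 strains in colour. The CC030 and CC038 libraries lie at the top of Dcn, where they run from 631 to 955, and the CC040 libraries near the bottom of Omd, at 19.97 and 22.7.

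All 9 genes that were above 0 in every library passed the strain test (limma's moderated F on log2(scaled TPM + 0.5), Benjamini-Hochberg adjusted p under 0.05), in a table where 81.5% of the 15760 tested genes did. Passing is thus close to the rule in this table. The strain-to-strain range of the 9 was wide beside it: its median was 2.15 on the log2 scale, against 1.02 over all tested genes. The share of variance that lay between strains (intraclass correlation) had a median of 0.683 in the 9 genes and 0.472 over all genes. Both medians describe the list and were not tested against other lists.

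The labels do not explain the number in each sample title, but libraries of 1 strain with neighbouring numbers resembled each other more. The 9 genes had a median intraclass correlation of 0.804 in the 19 strains with numbers within 5 of each other (all genes 0.695). In the 20 strains with numbers 20 or more apart it was 0.567 (all genes 0.354). In this second set a strain kept just the libraries at either end of its numbering. The part of the dropped libraries in the lower values was not tested. The 9 genes still passed the strain test there, with adjusted p between 0.00105 for Dcn and 0.0479 for Podn.

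Decorin had the widest range of strain means in class I. Its libraries held 152.8 scaled TPM at the lowest, 321 at the median and 955 at the highest. The CC030 libraries were at 955 and 834, and the 4 CC038 libraries at 631, 814.5, 882 and 687. Only 1 library of another strain lay above the lower CC030 library, and it was from CC038, so these 2 strains formed the top of the order with no library of another strain among them.

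At the other end, the CC016 libraries were at 152.8 and 234 and the CC075 libraries at 236, 185 and 193.2. Against the mean of the other strains, Dcn was higher by 1.44 ± 0.23 (log2, SE) in CC030 (limma adjusted p = 4e-06) and by 1.18 in CC038 (adjusted p = 2.05e-07), and lower by 0.74 in CC075 (log2 difference -0.74, adjusted p = 0.00413). These 3 calls held whichever library of the strain was left out. The call in CC016 (-0.85, adjusted p = 0.00715) was lost without replicate 1 (adjusted p = 0.291). Over strains the highest mean was 4.71 times the lowest (F test adjusted p = 3.32e-10). In the order of the strain means, neighbours differed by less than the within-strain SD of 0.33 (log2) with 1 exception among 38 steps, the step of 0.41 from CC038 down to CC071.

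Biglycan, the other chondroitin sulfate proteoglycan of the class, had the narrowest range of the 9 genes. Its libraries ran from 160 to 423 scaled TPM with a median of 238. The CC012 libraries were at 340 and 369.2, the CC061 libraries at 356.9 and 335, and the CC023 libraries at 160.4 and 160.3, the last pair below all 93 other libraries.

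Bgn was higher by 0.57 in CC012 (log2, adjusted p = 0.000422) and by 0.53 in CC061 (adjusted p = 0.000999), and lower in CC023 (-0.60, adjusted p = 0.000172), each whichever library was left out. In deposited TPM without the scaling factor the CC023 difference shrank to -0.36 (adjusted p = 0.0732), and that call was lost. The full range of strain means was 2.21-fold (adjusted p = 5.95e-08), and none of the 38 steps in their order was larger than the within-strain SD of 0.169. Bgn lies on the X chromosome, and over the 95 libraries its level had r = 0.09 with Xist, the RNA that silences 1 X chromosome in female cells.

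The balance of Dcn and Bgn also differed between strains. The log2 ratio of Dcn to Bgn averaged 1.96 ± 0.55 (SD, n = 2) in CC030, 1.55 ± 0.24 (n = 4) in CC038 and -0.41 ± 0.17 (n = 3) in CC075. Dcn was the higher of the 2 in 28 of 42 strains. The ratio differed between strains by 5.18-fold from end to end (permutation test of the strain labels, F = 6.37, p = 1e-05, the smallest the 100000 permutations can give). Without CC030 the log2 range was 1.96, against 2.37 with it.

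The 4 CC004 libraries did not keep together. Replicates 1 and 2, which have neighbouring title numbers, had 315 and 519.5 scaled TPM of Dcn and 228.5 and 232.97 of Bgn. Replicates 3 and 4, which have neighbouring numbers far from the first, had 164.8 and 189 of Dcn and 295.5 and 423 of Bgn. The log2 ratios of the first pair, 0.46 and 1.16, thus lay above 0, and those of the second, -0.84 and -1.16, below it, so that libraries of this strain span much of the range seen between strains.

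**Figure D2:**
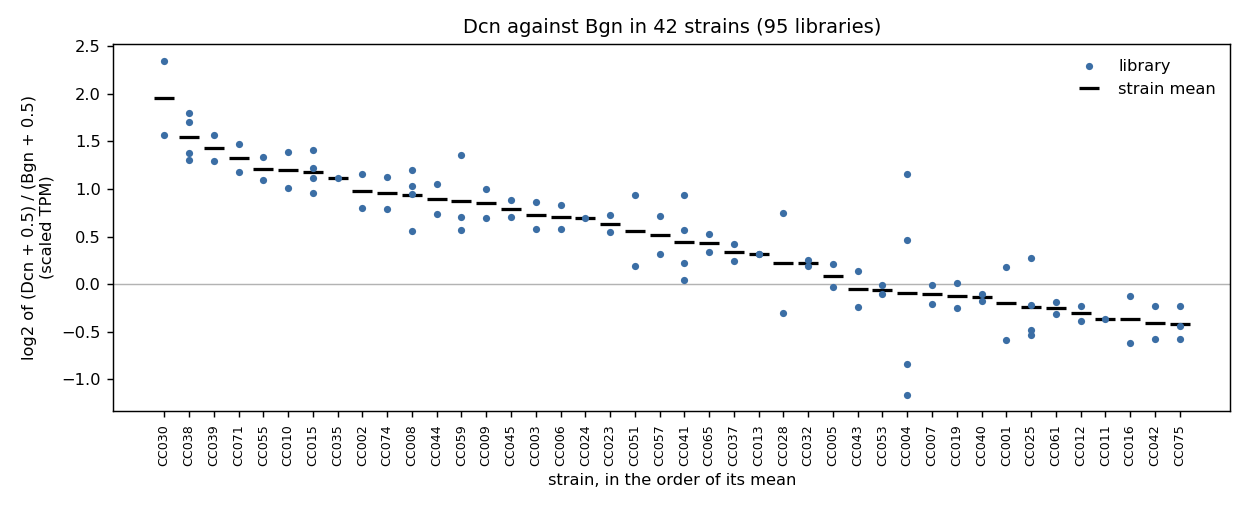
Log2 ratio of Dcn to Bgn (scaled TPM + 0.5 each) in 95 libraries (points) and its mean per strain (black bars), with the 42 strains in the order of their means. The order runs from 1.96 in CC030 to -0.41 in CC075, and the 4 CC004 points run from -1.16 to 1.16.

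Asporin, the third class I member, ran from 88.6 to 449 scaled TPM over libraries. It was highest in CC009, at 449 and 395, and lowest in CC043, at 103 and 153.3, and those libraries did not overlap. Aspn was higher in all 4 CC038 libraries together (391, 321.5, 400 and 346.5; log2 difference 0.61, adjusted p = 0.0014, kept with each library left out). The calls in CC009 (0.83, adjusted p = 0.00195) and CC043 (-0.96, adjusted p = 0.000313) were lost with 1 library left out, CC009 replicate 1 (adjusted p = 0.0696) and CC043 replicate 1 (adjusted p = 0.097).

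Lumican, the class II gene next to Dcn on chromosome 10 and a regulator of fibril assembly, was highest, as Dcn was, in CC030, CC038 and CC071. The CC030 libraries were at 1112 and 1249, the CC038 libraries at 1321, 1060, 1169 and 1097, and the CC071 libraries at 1128 and 1104. The single CC011 library was the lowest of all at 371, and the CC075 libraries were at 462.5, 398 and 410. Lum was higher by 0.76 in CC030 (log2, adjusted p = 0.000242), 0.74 in CC038 (adjusted p = 1.09e-06) and 0.68 in CC071 (adjusted p = 0.00107). It was lower in CC075 (-0.75, adjusted p = 1.17e-05) and in CC042 (-0.71, adjusted p = 0.000631). All 5 calls held with each library left out. The range over strains with 2 or more libraries was 2.79-fold (F test adjusted p = 6.41e-11), and no step in the order was larger than the within-strain SD of 0.219.

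Fibromodulin, which binds collagen and shares sites on the fibril with lumican, followed another order of strains. The CC039 libraries were at 201.2 and 199 and the CC061 libraries at 194 and 203.5. The CC042 libraries were at 48.5 and 40.9 and the 4 CC025 libraries at 63.4, 52.3, 36.05 and 54.7, so the 2 ends were far apart. Fmod was higher by 1.02 in CC039 (log2, adjusted p = 0.000646) and 1.01 in CC061 (adjusted p = 0.000743). It was lower in CC042 (-1.19, adjusted p = 7.29e-05) and CC025 (-1.0, adjusted p = 3.63e-06), and all 4 calls held with each library left out. CC007 had the highest single Fmod library, 235.3, beside a second one at 122, and its call (0.78, adjusted p = 0.0111) was lost without replicate 1 (adjusted p = 0.575).

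Lum was above Fmod in all 42 strains. The log2 ratio of Lum to Fmod averaged 3.88 ± 0.39 (SD, n = 2) in CC055 and 1.54 ± 0.06 (n = 2) in CC061, a 5.07-fold spread (permutation F = 4.78, p = 1e-05). In the 20 strains with title numbers 20 or more apart the log2 range was 1.62 instead of 2.34 and did not pass (permutation p = 0.138).

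Prelp, the basic family member that binds heparan sulfate and collagen, had the widest range of the 9 genes, 6.96-fold between strain means (F test adjusted p = 2.24e-09). The 4 CC038 libraries were at 15.8, 22.7, 32.1 and 19.6 scaled TPM. The 4 CC025 libraries were at 3.39, 2.97, 2.27 and 3.02 and the CC037 libraries at 2.81 and 2.60. The CC038 libraries thus lay several-fold above both, and 2 of the 91 libraries of other strains exceeded the lowest of them. Prelp was higher by 1.66 in CC038 (log2, adjusted p = 1.58e-08) and by 1.00 in CC008 (adjusted p = 0.000384), and lower in CC025 (-1.13, adjusted p = 6.16e-05), each kept with any library left out. In CC037 (-1.21, adjusted p = 0.00223) leaving out replicate 2 gave an adjusted p of 0.0505. On the log2(scaled TPM + 0.5) scale these differences understate those of such a low gene.

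Osteomodulin is the class II protein of mature osteoblasts. The CC074 libraries were at 70.8 and 99.9, the 4 CC041 libraries at 82.9, 112, 65.4 and 59.0, and the CC009 libraries at 83.8 and 79.03. The CC006 libraries were at 21.0 and 15.0, the CC045 libraries at 16.9 and 21.9, and the CC040 libraries at 22.7 and 19.97. No library of the low strains reached the lowest of the high ones. Omd was lower in CC006 (log2 difference -1.36, adjusted p = 1.44e-05), CC045 (-1.24, adjusted p = 6.85e-05) and CC040 (-1.10, adjusted p = 0.000444). It was higher by 0.79 in CC041 (adjusted p = 0.000432), and these 4 calls held with each library left out. The higher call in CC074 (0.91, adjusted p = 0.00404) did not hold without replicate 2 (adjusted p = 0.185).

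Keratocan, a keratan sulfate proteoglycan best known from the cornea, was at 0 in 24 libraries. It passed the filter on low values through 2 libraries, CC030 replicate 1 at 0.67 and CC002 replicate 2 at 0.441 scaled TPM. The second CC030 library held 0.0553 and the first CC002 library 0.171. A gene that enters the test through the libraries where it is high has to differ there, so its strain test gives no support to the pattern of the others.

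Osteoglycin, the class III member, was highest in CC009, with libraries at 386 and 384 scaled TPM. It was lowest in CC043, with 67.5 and 110, and the CC051 libraries were at 64.8 and 200.7. One CC051 library thus lay below both CC043 libraries and the other above them. Ogn was higher by 0.96 in CC009 (log2, adjusted p = 0.000524) and 0.69 in CC038 (adjusted p = 0.00051), and lower in CC043 (-1.25, adjusted p = 7.12e-06), with each library left out in turn. Its call in CC051 (-0.84, adjusted p = 0.00263) went to -0.03 without replicate 1 (adjusted p = 0.962).

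Podocan, the class V member, had libraries from 0.997 to 17.2 scaled TPM and the lowest between-strain share of the 9 genes, an intraclass correlation of 0.35. It was highest in CC030 (12.5 and 16.4) and CC071 (13.4 and 14.2). The 4 CC041 libraries were at 0.997, 1.697, 9.20 and 5.74, so that this strain had libraries on both sides of the median of 6.57. No Podn call held with each library of its strain left out. In CC030 the difference was 1.09 (adjusted p = 0.0367), and in CC038 it was 0.95 (adjusted p = 0.00932). Without CC030 replicate 2 the first had an adjusted p of 0.275, and without CC038 replicate 4 the second had 0.0559.

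Podn also differed from the others in the mix of its 8 transcripts, which was not tested. It is a low gene (median 6.57 scaled TPM), and the part of read assignment in these shares was not tested either. Over single libraries the share of Podn-201 ran from 3.67% to 70.2% and that of Podn-203 from 2.39% to 52.7%. The transcript named Podn-203 held 3.22% of the gene's TPM in CC007 and 50.9% in CC045, and Podn-201 held 6.79% in CC057 and 53.2% in CC007. By contrast the main transcript of Dcn held a median of 97.0%, of Bgn 96.3%, of Fmod 99.9% and of Aspn 97.8%. Lum, Ogn and Omd have 1 transcript each in the table. The annotation places Scp2 over Podn on the same strand and Cenpp over Aspn, Omd and Ogn on the opposite one. No source used here says whether counting used the strand, so reads of overlapping genes may not have been told apart.

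Counted over the 9 genes and 39 strains with 2 or more libraries, 48 of 351 comparisons of a strain with the others were called higher and 42 lower. Over all genes and strains 7.72% were called higher and 7.08% lower. With Kera there were 92 calls, of which 29 were kept whichever library of the strain was left out. Among strains with 2 libraries 15 of 64 were kept, each tested on the 1 library that was left, and among strains with 4 libraries 12 of 26. In the 20 strains with title numbers 20 or more apart, tested alone, 20 of their 58 calls were kept and 38 lost. In deposited TPM 76 of the 92 were kept. Of the 39 strains, 5 had no call in these genes and 7 had calls in both directions.

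CC038 and CC030 stood at the high end. In CC038, 7 of 9 genes were called higher where 16.1% of all genes were, and Dcn, Lum, Ogn, Aspn and Prelp kept their calls with any 1 of its 4 libraries left out. In CC030, 6 of 9 were called higher where 16.8% of all genes were, and 2 of them, Dcn and Lum, held with either library left out. CC038 also had the highest summed levels of the fibroblast markers (881 scaled TPM, median 362) and of the tendon and suture markers (500, median 221), and CC030 ranked 4 and 3 of 42 in these lists. The tendon and suture sum rests largely on Tnmd, which averaged 357.6 in CC038. CC030 was above the strain median for 5 of 9 tendon and suture markers and CC038 for 6 of 9. The mean z-score of this list was 0.06 in CC030 and 0.62 in CC038. CC038 and CC030 ranked 1 and 3 for the adipocyte markers (133.8 and 86.1, median 27.4), 34 and 41 for the osteoblast markers and 10 and 1 for the macrophage markers. The adipocyte sums rest on uneven libraries. Fabp4 was at 60.1 ± 65.4 (SD) in CC038, where the SD is larger than the mean, and Cd36 at 34.4 ± 27.2 in CC030. Adipoq, Plin1, Cidec and Cfd did not pass the strain test. The part of these cell types in the results was not tested.

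CC040 and CC043 stood at the low end, CC025 near it. In CC040, 6 of 9 genes were called lower where 4.51% of all genes were, and Omd alone held with either library left out. In CC043, 4 of 9 were called lower where 14.3% of all genes were, and Ogn alone held. In deposited TPM the Dcn and Fmod calls of CC043 were lost (adjusted p = 0.0694 and 0.0513), which leaves 2 of the 4. In CC025, 4 of 9 were called lower where 12.2% were, and Dcn, Fmod and Prelp held with any of its 4 libraries left out. The osteoblast marker sums of CC040, CC043 and CC025 ranked 33, 39 and 29 of 42, and their tendon and suture sums 40, 27 and 30. The mean z-scores of the tendon and suture list were -0.83 in CC040, 0.14 in CC043 and -0.01 in CC025. The fibroblast sums of CC040, CC043 and CC025 ranked 23, 14 and 24, and their macrophage sums 7, 23 and 31, with CC040 above the strain median for 14 of 14 macrophage markers.

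**Figure D3:**
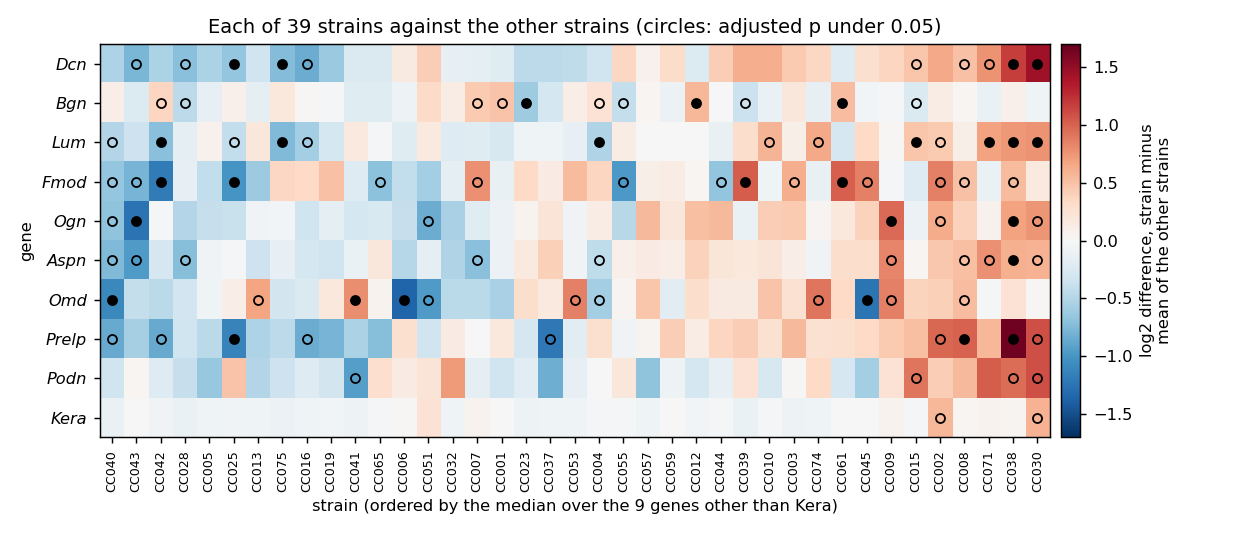
Log2 difference of each of 39 strains from the mean of the others (colour) for each gene, with strains ordered by the median over the 9 genes other than Kera. Circles mark the 92 calls (adjusted p under 0.05), and the 29 filled ones held with each library of the strain left out. CC030 and CC038 at the right have 6 and 7 higher calls in the 9 genes, and CC040 at the left has 6 lower ones.

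Many of these genes rose and fell together from strain to strain. Of 36 pairs among the 9 genes, 16 passed (limma on 42 strain means, adjusted over all tested genes), and all 16 relations were positive. Over all genes, 4.74% of relations to a family member were called positive and 3.56% negative. The closest pairs were Dcn with Prelp (r = 0.84, rho = 0.85, adjusted p = 7.11e-08) and Dcn with Lum (r = 0.83, rho = 0.82, adjusted p = 1.01e-07). Ogn and Aspn followed (r = 0.76, rho = 0.77, adjusted p = 4.31e-06). Each r and rho of these 3 pairs had a permutation p of 1e-05, the smallest the 100000 permutations can give, in a family of 45 pairs that includes Kera. Without the 2 strains farthest from the median of the first gene, r was 0.79, 0.79 and 0.69. Over the 16 pairs it then ran from 0.40 to 0.79, and permutation p was at most 0.00305 for r and 0.00279 for rho.

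Dcn was further related to Aspn (r = 0.67, rho = 0.66, adjusted p = 0.000213), Podn (r = 0.59, rho = 0.53, adjusted p = 0.00195) and Ogn (r = 0.55, rho = 0.52, adjusted p = 0.00464). Lum was related to Aspn (r = 0.64, rho = 0.63, adjusted p = 0.000542) and Prelp (r = 0.62, rho = 0.62, adjusted p = 0.00105). Bgn, the X-linked member, passed in none of its 8 pairs, and all 5 negative coefficients in the set were its own, led by r = -0.33 with Lum (adjusted p = 0.177). Fmod passed with Prelp (r = 0.48, adjusted p = 0.0193) and with Ogn (r = 0.45, adjusted p = 0.0355). The second of these was lost without strain CC051 (adjusted p = 0.0549).

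The genes lie in 3 chromosomal groups of neighbours: Dcn, Lum and Kera on chromosome 10, Aspn, Omd and Ogn on chromosome 13, and Prelp and Fmod on chromosome 1. Among the 9 genes, all 5 same-chromosome pairs passed, and 11 of 31 pairs on different chromosomes. Within the chromosome 13 group Aspn and Omd had r = 0.53 (adjusted p = 0.00791) and Ogn and Omd r = 0.45 (adjusted p = 0.0309), the latter lost without CC051 (adjusted p = 0.0636). The closest pair of all, Dcn and Prelp, lies on different chromosomes.

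Differences between libraries of 1 strain were also compared, with no test. Over the 39 strains, the difference between the highest- and lowest-numbered library of Dcn had r = 0.72 with that of Lum and 0.64 with that of Prelp, and Ogn had 0.77 with Aspn and 0.74 with Omd. Over the 16 pairs this r ran from 0.37 (Dcn with Podn) to 0.77, and over the other 20 pairs from -0.36 to 0.41. These differences hold no strain effect. In strains with title numbers 20 or more apart, r was 0.88 for Dcn with Lum, 0.87 for Dcn with Prelp and 0.86 for Ogn with Aspn, and in strains with numbers within 5 it was 0.77, 0.82 and 0.70. The number of pairs that passed among the 45 fell from 19 to 10 in the first set and 2 in the second, which hold 20 and 19 strains.

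**Figure D4:**
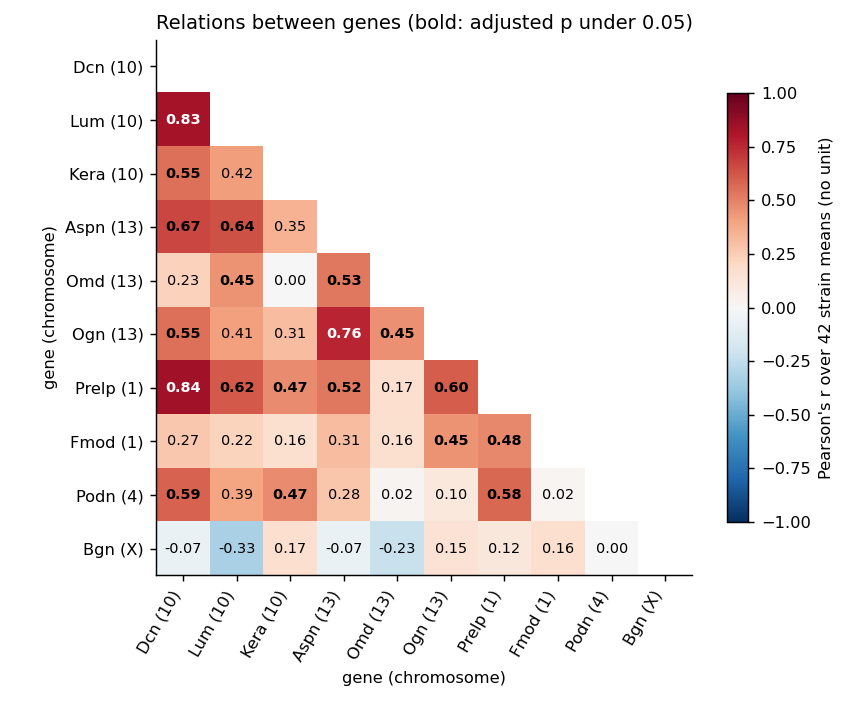
Pearson's r between genes over 42 strain means, with the chromosome of each gene in brackets and pairs with an adjusted p under 0.05 in bold. The highest values are 0.84 (Dcn with Prelp) and 0.83 (Dcn with Lum), and the bottom row, Bgn, has no bold value.

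The start regions of the chromosome 13 neighbours are shown because Aspn and Ogn varied together, and that of Bgn because it did not vary with them. RefSeq's table (GRCm38.p6) held a start region for 8 of the 10 genes. The 250 bases before the start are printed 5′ to 3′ on the gene's strand, with capitals for the letters of 4 motifs searched on both strands. These were TATAAA for the TATA box, TGTGGT for Runx factors, TGANTCA for AP-1, and GGAATG for TEAD factors. In Ogn the TATA letters were found on both strands at overlapping bases.
Aspn, chr13:49544193-49544442, plus strand: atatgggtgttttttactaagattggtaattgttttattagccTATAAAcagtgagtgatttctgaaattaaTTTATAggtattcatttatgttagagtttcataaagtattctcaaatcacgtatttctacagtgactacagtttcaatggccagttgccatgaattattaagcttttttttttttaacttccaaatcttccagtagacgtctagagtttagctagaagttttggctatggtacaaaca
Omd, chr13:49582212-49582461, plus strand: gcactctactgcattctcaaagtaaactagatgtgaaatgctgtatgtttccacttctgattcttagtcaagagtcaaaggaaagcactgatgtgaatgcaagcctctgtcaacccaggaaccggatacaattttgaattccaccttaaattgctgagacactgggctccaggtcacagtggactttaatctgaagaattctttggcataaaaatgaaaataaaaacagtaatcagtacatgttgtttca
Ogn, chr13:49607765-49608014, plus strand: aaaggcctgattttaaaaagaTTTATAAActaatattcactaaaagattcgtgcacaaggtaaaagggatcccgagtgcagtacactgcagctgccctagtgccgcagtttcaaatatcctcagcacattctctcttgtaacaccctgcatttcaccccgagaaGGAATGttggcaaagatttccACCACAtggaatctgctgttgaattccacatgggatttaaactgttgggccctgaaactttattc
Bgn, chrX:73483351-73483600, plus strand: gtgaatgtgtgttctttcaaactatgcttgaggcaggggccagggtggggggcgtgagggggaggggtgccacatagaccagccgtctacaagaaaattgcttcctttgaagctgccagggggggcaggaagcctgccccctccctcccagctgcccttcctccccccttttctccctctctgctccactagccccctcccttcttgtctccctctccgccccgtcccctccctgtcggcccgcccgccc

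The 3 neighbours have AT-rich start regions, with 30.0% (Aspn), 38.4% (Omd) and 42.0% (Ogn) G or C, while Bgn has 64.4% and the median over all 32851 windows is 52.4%. TATAAA or its reverse complement was found in Aspn and Ogn and in 12.4% of all windows. In both genes these letters lay nearer the far end of the printed bases than the start. Ogn also held GGAATG, found in 12.6% of windows, and ACCACA, the reverse complement of the Runx letters, found in 14.0%. TGANTCA, in 6.75% of windows, was in none of the 4, and Omd and Bgn held none of the 4 motifs. The start regions of Prelp and Fmod, which were also related to Ogn over strains, had 55.6% and 51.2% G or C. They held none of the 4 motifs either. Whether these letters have a part in the relations between genes was not tested. A match is a run of letters and not a site known to be bound.

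In these mixed cultures the genes were set against the mean z-score of 9 cell type marker lists over the 42 strains. Of 81 relations of the 9 genes 18 passed, and with Kera 20 of 90, where 11.9% of all genes' relations were called. The osteoblast score was negatively related to Podn (r = -0.68, rho = -0.66, adjusted p = 3.47e-05), Dcn (r = -0.60, rho = -0.55, adjusted p = 0.000689) and Lum (r = -0.58, rho = -0.60, adjusted p = 0.00148). These are 3 of 9 genes, where 11.5% of all genes had a negative call. Permutation p-values for r were 1e-05, 5e-05 and 3e-05. Without CC071 and CC030, the 2 strains farthest from the median score, r was -0.56, -0.47 and -0.46. Omd, Ogn and Bgn had r of 0.05, 0.04 and 0.25 with this score and did not pass.

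The fibroblast score, built on genes such as Dpt, Pi16 and Mfap5, was positively related to Prelp (r = 0.72, rho = 0.65, adjusted p = 3.47e-06), Dcn (r = 0.71, rho = 0.70, adjusted p = 8.68e-06) and Podn (r = 0.66, rho = 0.67, adjusted p = 8.85e-05). That is 3 of 9 genes, against 9.26% of all genes. Without CC038 and CC006 the 3 coefficients were 0.68, 0.69 and 0.65.

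The tendon and suture score, built on genes such as Scx, Mkx and Tnmd, had positive calls for 6 of 9 genes, against 4.21% of all genes. Aspn led (r = 0.65, rho = 0.66, adjusted p = 0.000123), followed by Dcn (r = 0.63, rho = 0.68, adjusted p = 0.000345) and Prelp (r = 0.62, rho = 0.71, adjusted p = 0.000388). Ogn (0.52), Lum (0.49) and Podn (0.46) also passed. Without CC009 and CC040, r was 0.56 for Aspn, 0.67 for Dcn and 0.38 for Ogn.

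The chondrocyte score was related to Prelp (r = 0.53, rho = 0.54, adjusted p = 0.00587), Fmod (r = 0.52, rho = 0.51, adjusted p = 0.00706) and Ogn (r = 0.42, adjusted p = 0.0452), where 1.87% of all genes had a positive call. The Ogn relation was lost without CC030 (adjusted p = 0.0958) and without CC051 (0.0847). The adipocyte score was related to Prelp (r = 0.57, rho = 0.41) and Podn (r = 0.48, rho = 0.39), against 7.93% of all genes, although Adipoq was at 0 in 60 libraries and Cidec in 75. Without CC038 and CC004, the 2 strains farthest from the median score, r was 0.45 for Prelp and 0.48 for Podn. The macrophage score was related to Podn alone of the 9 (r = 0.54, adjusted p = 0.00387), against 11.4% of all genes. Bgn and Omd passed with none of the 9 scores, and no gene passed with the smooth muscle, endothelial or proliferation score. Over the 18 relations, permutation p was at most 0.00629 for r and 0.0197 for rho.

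The strength of these relations depended on the set of strains and on scaling. In strains with title numbers 20 or more apart, r with the osteoblast score was -0.73 for Dcn and -0.71 for Podn, and with the fibroblast score 0.83 for Dcn and 0.85 for Prelp. In strains with numbers within 5 the same 4 coefficients were -0.58, -0.74, 0.55 and 0.55. Among the 90 relations, 8 passed in the first set and 3 in the second, and 35 passed in deposited TPM without a scaling factor.

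**Figure D5:**
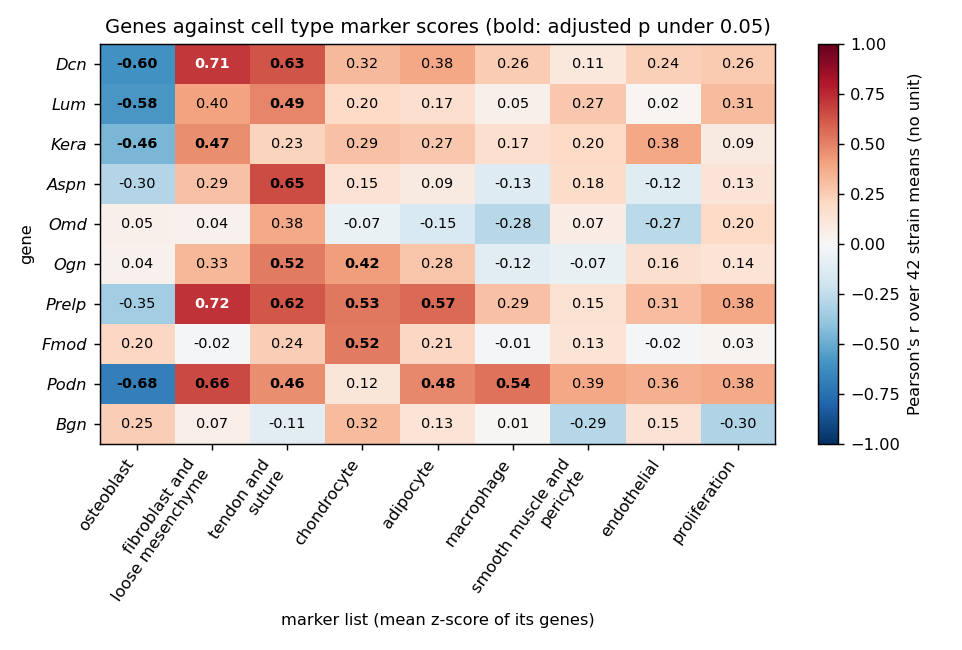
Pearson's r between each gene and each marker score over 42 strain means, with relations of adjusted p under 0.05 in bold. The left column (osteoblast) holds -0.68 for Podn, -0.60 for Dcn and -0.58 for Lum, and the rows of Omd and Bgn have no bold value.

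The genes whose strain means were most like those of each member were also listed, by Pearson's r among genes whose mean TPM reached 1, over 42 strains. The genes named below are the highest of 11930 coefficients per member, and a search of that size finds high values by itself. No p-value is given for this search. For Dcn the closest gene was 1500015O10Rik (r = 0.84). For Prelp it was Ecm2 (r = 0.85), a related matrix gene that lies beside Aspn and was also close to Ogn (r = 0.76). For Lum it was, after Dcn, Dkk3 (r = 0.76) and Lgr5 (r = 0.73), a receptor for R-spondins. For Aspn it was Zfp521 (r = 0.76), a zinc finger regulator of skeletal cells. Bgn was closest to Gm12940 (r = 0.77), Kmt2c (0.72) and Fut8 (0.71), and Podn to Dennd2a (0.85) and Mn1 (0.84). Fmod and Omd had no gene above 0.57 and 0.60, which were Rdh5 and Ndnf.

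The genes that build, cut and bind these proteoglycans were taken from 7 fixed lists with 79 genes in the table, of which 76 were tested and 70 (92.1%) passed the strain test, where 81.5% of all tested genes did. Strain extremes below are among strains with 2 or more libraries. Of 7 tested members among other small leucine-rich proteoglycans, 6 passed. Podnl1 had the highest median (18.9 scaled TPM), from 7.80 ± 1.696 in CC044 to 37.5 ± 10.5 in CC051 (n = 2 each). Epyc, the epiphycan gene next to Kera, was at 47.7 ± 11.3 (SD, n = 2) in CC071 and 4.81 ± 0.90 (n = 2) in CC037. Chad (chondroadherin) was at 2.19 ± 0.99 in CC007 and 0.0387 ± 0.0078 in CC071 (n = 2 each).

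All 12 collagens passed. Col1a2, a chain of type I collagen, was at 10580 ± 221 in CC061 and 4005 ± 961 in CC055, and Col1a1 at 4741 ± 5.76 in CC061 and 1014 ± 424 in CC013 (n = 2 each). Col14a1, a collagen on the surface of fibrils, had the widest range of the list, 45.7 ± 13.1 in CC030 against 1.63 ± 0.31 in CC037. Col5a3 was at 24.1 ± 27.1 in CC051, where the SD is larger than the mean.

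Of 22 genes for the glycosaminoglycan linker and the chondroitin or dermatan sulfate chain, 20 passed. The exceptions were Fam20b, a linker kinase, and Chpf2, which was the most abundant of the list (median 35.3, adjusted p = 0.237). Chsy1, a chondroitin synthase, was next (median 32.02, adjusted p = 1.79e-05). Csgalnact1, which starts the chondroitin chain, ran from 1.32 ± 0.30 (n = 2) in CC019 to 14.8 ± 6.02 (n = 4) in CC038. Chst13, a chondroitin 4-sulfotransferase, was lowest in CC030, at 0.157 ± 0.056 (n = 2), and highest in CC019, at 3.88 ± 1.24 (n = 2).

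All 9 genes of keratan sulfate synthesis and tyrosine sulfation passed, with Tpst1 (median 37.9) and Tpst2 (23.9), the tyrosine sulfotransferases, the most abundant. B3gnt7, which extends keratan sulfate, ran from 0.306 ± 0.034 (n = 4) in CC025 to 2.90 ± 0.53 (n = 2) in CC044. Chst2, a sulfotransferase, ran from 1.74 ± 0.16 in CC007 to 7.08 ± 0.57 in CC043 (n = 2 each). Of 11 tested proteases and their enhancers 10 passed, all but Mmp14. Pcolce, the enhancer of the procollagen C-proteinase, was at 417 ± 5.61 in CC030 and 176 ± 50.2 in CC043 (n = 2 each), and Mmp13 at 1601 ± 333 in CC032 and 175 ± 37.9 (n = 3) in CC075. Mmp3 (stromelysin) had the widest range, from 0.747 ± 0.438 (n = 3) in CC075 to 350 ± 484.6 (n = 2) in CC051, where the SD is larger than the mean.

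Of 6 genes for TGF-beta ligands and receptors 5 passed, all but Tgfb1. Tgfb3 ran from 19.3 ± 0.71 (n = 2) in CC040 to 48.1 ± 7.02 (n = 4) in CC038, and Tgfbr2 at 53.6 ± 5.57 in CC030 and 19.97 ± 0.37 in CC019 (n = 2 each). Tgfbr3 (betaglycan) ran from 5.32 ± 2.82 in CC041 to 22.1 ± 6.04 in CC038 (n = 4 each), and Tgfb2 from 2.59 ± 0.056 in CC071 to 8.66 ± 1.95 in CC012 (n = 2 each). Of 9 receptors reported for these proteoglycans 8 passed. Lrp1, the most abundant, did not (adjusted p = 0.097). Egfr ran from 11.4 ± 0.16 in CC043 to 24.4 ± 2.20 in CC055 (n = 2 each). Tlr2, a receptor reported for biglycan, was at 15.7 ± 8.92 in CC030 and 2.01 ± 0.15 in CC045, and P2rx7 at 3.76 ± 1.37 in CC030 and 0.340 ± 0.175 in CC003 (n = 2 each).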

How the data were processed

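The authors deposited one table of TPM per transcript, named for counts, whose columns each sum to 1000000. Bowtie and mm9 appear, without versions or roles, per the submitters' processing notes. Of 94545 transcripts, 91225 matched the GRCm38 annotation by identifier and were summed to genes. TPM was divided by a trimmed mean of log ratios per library (factors 0.772 to 1.27). A gene was tested if 2 libraries or more reached 0.5 TPM. Tests used log2(scaled TPM + 0.5) and limma 3.58.1 in R 4.3.3: a moderated F over 39 strains (92 libraries), each strain against the unweighted mean of the others, and slopes over 42 strain means, with two-sided tests and Benjamini-Hochberg adjustment over all genes. For relations this replaced the adjustment over the members alone that the design had named. The script was tested on simulated data, and 83 of 92 libraries correlated best with 1 of their own strain. Genes, lists and the rule for naming genes (extreme strains, the 3 most alike genes, the 2 most abundant and 2 most variable of each list) were chosen with earlier results of these data known. Alternatives were other pseudocounts, scalings, filters, strains by title number, 1 run of the repeated sample, limma without a trend, and each library or, chosen after seeing the data, strain CC030 or CC051 left out.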

Additional observations from a re-analysis of the deposited data

Results flagged for a closer look

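In the 6 strains with 4 libraries, the highest or lowest library of each of the 10 genes was set against the other 3, which gave 60 comparisons, and 4 stood apart by Dixon's criterion. Chance alone marks about 1 in 20. Bgn in CC025 replicate 1 was at 312.7 scaled TPM, with the other 3 libraries from 234 to 247. Ogn in CC038 replicate 3 was at 409, with the others from 291 to 303. Kera in CC015 replicate 1 was at 0.1184, with the others from 0 to 0.0166, and in CC041 replicate 2 at 0.0456, with the others at 0. With 3 libraries at 0 any level above 0 in the last one stands apart, so the CC041 case holds no information, and both Kera cases lie near 0.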

How the results depend on the processing

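Results kept their direction under every setting tried, except that Aspn in CC028 went from -0.72 to 0.014 (log2, adjusted p = 0.979) without replicate 1 and to -1.45 without replicate 2. The 92 calls became 20 in strains with title numbers 20 or more apart and 75 in strains with numbers within 5. The 20 score relations became 8 there, 3 in the strains with close numbers, and 35 in deposited TPM. The 19 pairs became 10 and 2 in those sets of strains, and the 70 related genes with a strain effect 42 in the first. The Lum to Fmod range became 1.62 there (permutation p = 0.138). These sets hold 20 and 19 strains, and strains outside a set have no call in it. The first set entered with the lowest- and highest-numbered library of each strain only. Of the calls in its own strains 20 were kept and 38 lost, and the cause of the drop was not tested. With 1 library left out, calls ran from 86 to 105, score relations from 18 to 23, and pairs from 16 to 19. Genes of the family with a strain effect then ran from 9 to 10 and related genes from 70 to 73. The median share of variance over all 10 genes, Kera included, was 0.666 with every library and ran from 0.653 to 0.712 with 1 left out. The log2 ranges then ran from 1.98 to 2.76 (Dcn to Bgn) and from 2.07 to 3.04 (Lum to Fmod). Without scaling, the median gene of a strain moved by -0.22 in CC037 to 0.19 in CC023. No paired analysis was possible because the labels give replicates no number that is shared between strains.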
